A study of Mus musculus with 30 samples.

Results

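The livers described here came from mice with constitutive loss of Cebpa in hepatocytes that had eaten a diet rich in fat, cholesterol and fructose (HFCFD) for 2 weeks. They were chosen by their sample labels: every library of the albumin-cre experiment with 2 weeks of HFCFD was taken, which gave 5 Cebpa fl/fl and 5 CebpaΔHep livers, 10 of the 30 livers in the series. Both groups carried floxed Cebpa alleles and ate the same diet. Only the CebpaΔHep mice carried the albumin-cre transgene, which expresses Cre constitutively in hepatocytes, so deletion preceded the diet. The mice were males backcrossed to C57BL/6N for 9 generations, and their age was not given in the sources used here. The other 20 livers belonged to 2 experiments with tamoxifen-inducible deletion, one labelled with 8 weeks of HFCFD and 10 days of tamoxifen (HFCFD8W+T10D) and one with 12 weeks of HFCFD before tamoxifen and 10 more weeks of the diet with tamoxifen (HFCFD12W+T10W), each with its own Cebpa fl/fl controls. PolyA RNA of whole liver was sequenced, 1 library per mouse.

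CEBPA is a basic leucine zipper transcription factor of the hepatocyte. It is known as an activator of genes for gluconeogenesis, amino acid breakdown, the urea cycle, bile acid handling and plasma protein secretion, and it holds mature hepatocytes out of the cell cycle. Related factors of the same family, such as CEBPB, bind similar DNA sequences, and glucocorticoid, insulin and fasting signals act on many of the same metabolic genes.

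The 10 libraries held 7996123 to 10257347 expected counts assigned to genes, and levels are given as CPM, counts scaled to the size of each library with edgeR's TMM factors. Fold changes are log2 fold changes of CebpaΔHep over Cebpa fl/fl with their standard error, and adjusted p-values are from edgeR's quasi-likelihood test over 11068 genes with enough counts. The first principal component carried 44.7% of the variance and separated the genotypes, and the second, with 15.9%, set CebpaΔHep mice 2 and 3 apart from CebpaΔHep mice 4, 5 and 6. Cebpa itself served as the check of the labels. It stood at 159, 164, 146, 125 and 158 CPM in Cebpa fl/fl mice 1 to 5 and at 2.92, 3.63, 4.77, 4.61 and 4.22 CPM in CebpaΔHep mice 2 to 6, 37.4-fold lower (log2 fold change -5.23 ± 0.13, adjusted p = 3.95e-11). Every library matched its label. Summed levels of 10 hepatocyte markers were 102530.0 to 127687 CPM in Cebpa fl/fl and 104090.0 to 148909 CPM in CebpaΔHep livers. Alb made up most of these sums (71933 and 86102 CPM on average) and was itself not different (adjusted p = 0.279). Of the 10 markers Tat and Fabp1 were higher, Serpina1b and Apoc3 were lower, and 6 did not pass. In bulk liver, fewer cells of a type and less RNA per cell cannot be told apart.

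Across all genes, 187 (1.69% of those tested) were at least 2-fold higher and 153 (1.38%) at least 2-fold lower in CebpaΔHep livers at an adjusted p under 0.05, together 3.07%. These are the called genes below. Without the fold minimum, 952 genes (8.6%) were higher and 895 (8.09%) were lower. In 1389 genes (12.5%) the 5 mice of one genotype all lay above the 5 of the other. The median log2 fold change of all genes was 0.0073. When CebpaΔHep mice 2 and 3 were both left out, 220 genes were called higher and 209 lower, and all 340 genes called with 10 mice kept their direction.

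**Figure D1:**
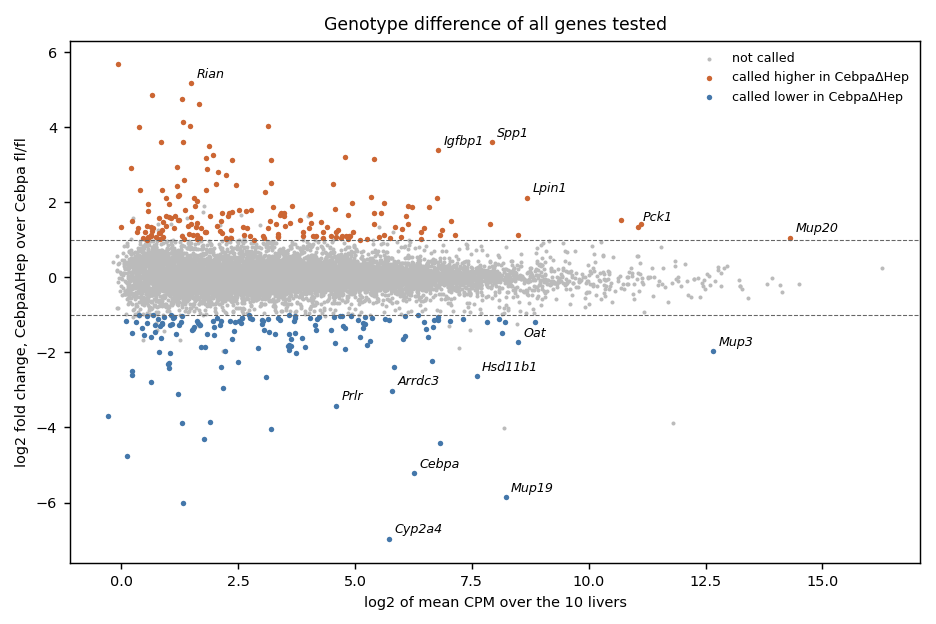
Log2 fold change of CebpaΔHep over Cebpa fl/fl livers (vertical axis) against the log2 of the mean CPM over the 10 livers (horizontal axis), 1 point per gene tested. Orange and blue points are the 187 genes called higher and the 153 called lower, dashed lines mark a 2-fold difference, and the called genes spread over the whole range of expression, with Mup20 among the most abundant.

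Most of the genes with the largest folds on the higher side were under 1 CPM in Cebpa fl/fl liver. Genes this low had enough counts to be tested only because of the CebpaΔHep mice. For them a rise was the only direction the test could show. Rian, a long noncoding RNA of the imprinted Dlk1-Meg3 cluster at chr12:109603940-109661716 (GENCODE M21, mm10), read 0.253, 0, 0.0995, 0.116 and 0.242 CPM in the Cebpa fl/fl mice and 5.43, 7.54, 4.66, 4.83 and 5.13 CPM in the CebpaΔHep mice. With at most 2 counts in a control library, it was at least 15.6-fold higher (adjusted p = 1.72e-06). Myo15b, an unconventional myosin gene, was at 0 in 4 of 5 Cebpa fl/fl mice and at 1.48 to 2.72 CPM in CebpaΔHep mice, at least 5.33-fold higher. The same kind of bound held for the PDZ protein gene Gipc2, at least 8.72-fold higher, and for the actin-associated, glucocorticoid-responsive gene Fam107a, at least 13.4-fold higher.

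The p21-activated kinase gene Pak6 rose 17.8-fold, the leucine-rich repeat gene Lrtm2 24.5-fold, the trypsin inhibitor gene Spink1 16.5-fold and the retinol dehydrogenase-like gene Sdr16c5 12.1-fold. The noncoding Gm32468 rose 11.3-fold. The secreted phosphoprotein Spp1 rose 12.1-fold (26.1 to 60.2 CPM in Cebpa fl/fl and 316 to 552 CPM in CebpaΔHep mice). Gm10132 and Gm10095 are processed pseudogenes, whose counts can hold reads of their parent genes. Their folds, 15.98 and 12.3, are uncertain for this reason and because Cebpa fl/fl mouse 4 was the only control with a count of either. Without this mouse the log2 fold changes were 7.47 for Gm10132, 7.91 for Gm10095 and 5.16 for Sdr16c5, and without Cebpa fl/fl mouse 2 it was 5.56 for Lrtm2, against 3.998, 3.62, 3.60 and 4.61 with all 10.

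On the lower side, the largest fold was in a cytochrome P450 gene. Cyp2a4, a steroid 15-alpha hydroxylase, varied widely in Cebpa fl/fl mice, at 28.7, 217, 112, 9.61 and 160.3 CPM. In CebpaΔHep mice it was at 0.805, 0.0955, 0.908, 2.196 and 0.228 CPM, 125-fold lower (log2 fold change -6.97 ± 0.93, adjusted p = 2.92e-04), or -7.68 without CebpaΔHep mouse 5. Its near-identical neighbour Cyp2a5 did not pass the test (436 and 492 CPM, adjusted p = 0.793), and the split of reads between the pair by the counting program is uncertain. Mup19, a major urinary protein gene, fell 58.2-fold (157 to 938 CPM in Cebpa fl/fl and 3.18 to 22.6 CPM in CebpaΔHep mice). Read assignment among the similar genes of its family is uncertain too. Gm13775, a noncoding transcript at chr4:61783123-61801286 directly beside Mup19 at chr4:61778324-61782269, was at least 15.5-fold lower.

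Several of the genes that fell most encode receptors and signalling proteins. The prolactin receptor gene Prlr was at 31.7, 70.8, 34.8, 38.7 and 44.2 CPM in Cebpa fl/fl mice. It was at 2.21, 6.301, 4.77, 2.96 and 4.22 CPM in CebpaΔHep mice, 10.7-fold lower (adjusted p = 7.09e-06). The heparan sulfate 6-O-endosulfatase gene Sulf2, which trims sulfate groups from cell-surface proteoglycans, fell 16.4-fold from 17.3 ± 3.61 to 1.04 ± 0.146 CPM (SD, n = 5 each; edgeR adjusted p = 1.12e-07). The neuregulin receptor gene Erbb4 fell 14.6-fold (log2 fold change -3.87, and -4.81 without CebpaΔHep mouse 5) and the Rac exchange factor gene Tiam2 19.8-fold. The transcription factor gene Rfx4 was at least 4.82-fold lower and the tight junction gene Cldn14 at least 6.56-fold lower. Genes with few counts in the CebpaΔHep mice, such as Rfx4, Cldn14 and Gm13775, could be tested only because of the Cebpa fl/fl mice. For such genes a fall was the only direction the test could show. The solute carrier gene Slc15a5 fell 8.63-fold, and the transcribed pseudogene Gm4956 14.8-fold. Arrdc3, an arrestin-domain adaptor, fell 8.14-fold (29.2 to 197 CPM in Cebpa fl/fl and 9.35 to 16.03 CPM in CebpaΔHep mice).

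**Figure D2:**
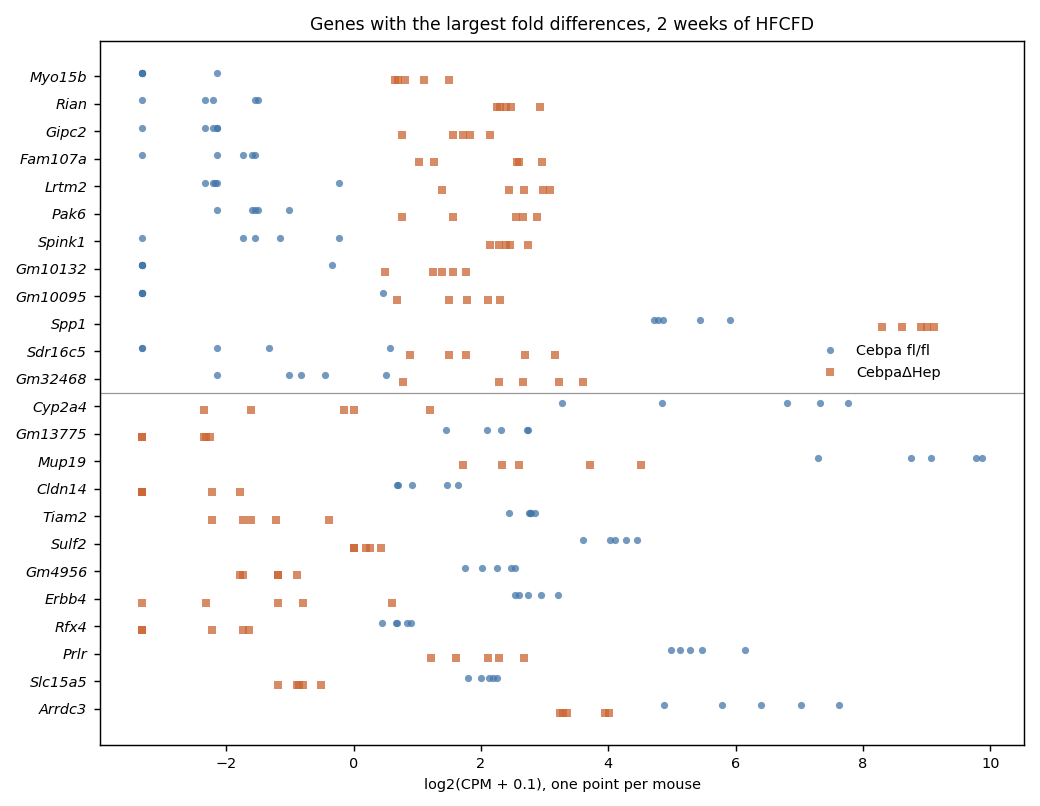
Level of the 12 genes with the largest fold differences in each direction, as log2(CPM + 0.1), with 1 point per mouse (blue circles Cebpa fl/fl, orange squares CebpaΔHep, 5 each). No gene shown has overlapping genotypes, a property the choice of these genes required. Most genes in the upper part sit near 0 CPM in the Cebpa fl/fl mice.

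Promoter sequences are shown because CEBPA acts by binding DNA. Windows from 250 bases before to 50 bases after the annotated start were taken from RefSeq (GRCm38.p6), and those printed belong to the genes of the leading 24 whose window held a match to TTGCNNAA, a form that the palindromic CEBP consensus site takes, on either strand (read as TTNNGCAA from the other), at most 2 in each direction by fold. Capitals mark the matches.
Spp1, chr5:104435942-104436241, plus strand: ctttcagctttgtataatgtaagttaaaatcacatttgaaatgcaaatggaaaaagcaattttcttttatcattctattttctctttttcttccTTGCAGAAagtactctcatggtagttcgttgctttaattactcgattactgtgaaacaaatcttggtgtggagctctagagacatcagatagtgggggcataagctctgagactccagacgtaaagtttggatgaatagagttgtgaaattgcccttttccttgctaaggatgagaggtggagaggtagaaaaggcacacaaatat
Cyp2a4, chr7:26306942-26307241, plus strand: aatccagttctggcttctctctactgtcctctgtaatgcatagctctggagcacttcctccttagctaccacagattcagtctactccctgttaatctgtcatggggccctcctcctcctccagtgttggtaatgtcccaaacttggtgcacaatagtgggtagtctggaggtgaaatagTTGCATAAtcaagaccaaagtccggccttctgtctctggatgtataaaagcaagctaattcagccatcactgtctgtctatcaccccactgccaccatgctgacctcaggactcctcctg
Cldn14, chr16:93929768-93930067, minus strand: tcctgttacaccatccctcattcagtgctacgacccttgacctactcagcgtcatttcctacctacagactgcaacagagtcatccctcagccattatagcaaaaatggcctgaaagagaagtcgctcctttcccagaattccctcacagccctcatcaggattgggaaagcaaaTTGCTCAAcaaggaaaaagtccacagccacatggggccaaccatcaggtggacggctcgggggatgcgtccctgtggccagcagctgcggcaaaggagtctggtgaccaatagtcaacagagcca
Spp1 rose, and Cyp2a4 and Cldn14 were lower in CebpaΔHep livers. Of the 12 leading genes on the higher side 7 had a window, and Spp1 was the only one of these 7 with a match. On the lower side Prlr also had one. The match stood in 1 of 2 windows of Spp1 and 1 of 3 of Cldn14. Both of these windows belong to internal annotated starts and lie inside the gene as GENCODE M21 draws it. There Spp1 begins at chr5:104435118 and Cldn14, on the minus strand, at chr16:94008837. The site through which the paper reports that CEBPA represses Spp1 lies upstream of the gene, outside the printed window. Of all 32851 windows, 10.8% held a match, and of 8616 tested genes, 10.4% had one in at least 1 window. Among called genes the share was 26 of 123 (21.1%) for those lower and 12 of 126 (9.52%) for those higher in CebpaΔHep livers. These shares describe letters in short windows, not binding.

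Gene lists leaned in both directions. Among 46 gene lists, 20 had more members higher than lower at an adjusted p under 0.05, 21 had more lower and 5 had equal counts. For reading the counts below, 8.6% of all genes tested were higher and 8.09% lower. Bile acid synthesis had 0 of 20 tested genes higher and 7 lower, and genes marking the pericentral zone of the lobule had 1 of 24 higher and 10 lower. Cholesterol synthesis stood on the other side, with 8 of 26 genes higher and 1 lower.

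**Figure D3:**
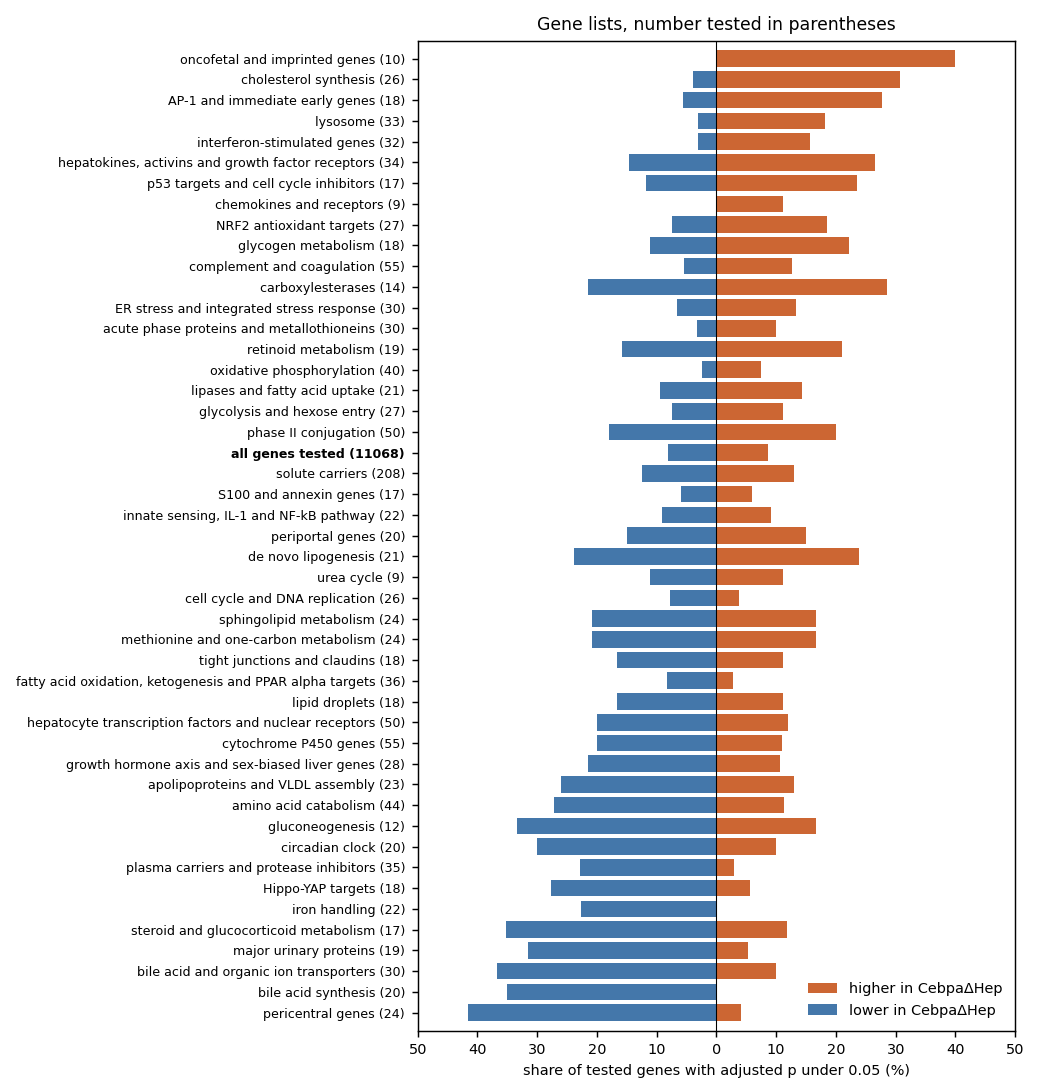
Share of each gene list with an adjusted p under 0.05, in percent of its tested genes (number in parentheses), with genes higher in CebpaΔHep livers drawn to the right in orange and genes lower drawn to the left in blue. The bold label marks all 11068 genes tested. Transporter and pericentral genes reach furthest left, and oncofetal and imprinted genes and cholesterol synthesis furthest right. Only 10 of the 26 listed oncofetal and imprinted genes had enough counts to be tested.

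In bile acid metabolism, genes of synthesis and of uptake were lower. Cyp7a1, the rate-limiting enzyme of the classical pathway, was at 245, 273, 225, 412 and 419 CPM in Cebpa fl/fl mice and at 146, 132, 93.00, 139.7 and 182 CPM in CebpaΔHep mice. It fell 2.27-fold (log2 fold change -1.18 ± 0.20, adjusted p = 0.00172). Further down the pathway, Akr1d1, the 5-beta reductase, fell 3.03-fold and Hsd3b7, which acts on 7-alpha hydroxylated sterols, fell 1.93-fold. The bile acid receptor gene Nr1h4 fell too (log2 fold change -0.64, adjusted p = 0.00185). Cyp8b1, the 12-alpha hydroxylase, had 164 to 292 and 126 to 226 CPM in the 2 genotypes and did not pass (adjusted p = 0.0811). The median over the 20 tested genes was -0.23.

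The list of bile acid and organic ion transporters had 3 of 30 higher and 11 lower. Slc10a1, the sodium-dependent bile acid uptake carrier, was at 556, 560.1, 553, 588 and 607 CPM in Cebpa fl/fl and 289, 277, 359, 344 and 321 CPM in CebpaΔHep mice. It fell 1.799-fold (adjusted p = 3.32e-05). The organic anion carrier Slco1b2 fell 1.63-fold, and the sterol exporters Abcg8 (log2 fold change -0.70) and Abcg5 (-0.68) also fell. The multidrug exporter genes Abcb1b (log2 fold change 1.79) and Abcc4 (1.53) rose.

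The pericentral list had a median log2 fold change of -0.51. Oat, ornithine aminotransferase, was at 526, 620.3, 495, 458 and 647 CPM in Cebpa fl/fl mice and at 172, 209.7, 153, 186 and 104 CPM in CebpaΔHep mice. It fell 3.33-fold (adjusted p = 2.55e-05). Rnf43, a membrane ubiquitin ligase and feedback inhibitor of Wnt signalling, fell 3.57-fold. The T-box factor gene Tbx3, also Wnt-responsive, fell (log2 fold change -1.11, adjusted p = 0.0146). Glul, glutamine synthetase of the innermost pericentral layer, did not pass the test, with 923 to 1438 CPM in Cebpa fl/fl and 959.8 to 1322 CPM in CebpaΔHep mice (adjusted p = 0.754), nor did Cyp2e1 (9769.7 and 9335 CPM on average). Periportal genes split evenly, 3 higher and 3 lower of 20.

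Glucose and glycogen genes moved in both directions. Pck1, the cytosolic enzyme that makes phosphoenolpyruvate for gluconeogenesis, was at 918, 803, 1065, 1733 and 1433 CPM in Cebpa fl/fl mice and at 2851, 2962, 2729.8, 2949 and 3673 CPM in CebpaΔHep mice. It rose 2.55-fold (adjusted p = 3.90e-04). Got1, the cytosolic aspartate aminotransferase, fell 2.48-fold (97.6 to 209 CPM in Cebpa fl/fl and 41.2 to 70.7 CPM in CebpaΔHep mice). The mitochondrial pyruvate carrier genes Mpc1 (log2 fold change -0.57) and Mpc2 (-0.46) fell as well. G6pc, glucose-6-phosphatase, ranged from 150.4 to 855 CPM in Cebpa fl/fl and 559.8 to 823 CPM in CebpaΔHep mice and did not pass (adjusted p = 0.384). In all, 2 of 12 gluconeogenesis genes were higher and 4 lower.

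In the glycogen list 4 of 18 genes were higher and 2 lower, and among those that rose were subunits that bring protein phosphatase 1 to glycogen. Ppp1r3c was at 33.1, 33.4, 27.3, 27.1 and 39.1 CPM in Cebpa fl/fl and 98.3, 174, 90.96, 110.3 and 116 CPM in CebpaΔHep mice, 3.69-fold higher (adjusted p = 1.66e-05). Ppp1r3g was 16.4-fold higher, but 1 control and 1 CebpaΔHep mouse overlapped, at 0.252 to 3.13 against 3.06 to 26.02 CPM, and the log2 fold change of 4.03 became 5.11 without Cebpa fl/fl mouse 4. Ugp2, which makes UDP-glucose for glycogen, fell 1.93-fold, and Gys2, liver glycogen synthase, did not pass (215 and 198 CPM). Pfkfb3, an activator of glycolysis through fructose 2,6-bisphosphate, rose 4.397-fold (5.04 to 23.5 CPM in Cebpa fl/fl and 57.6 to 78.1 CPM in CebpaΔHep mice).

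Igfbp1, Tat, Lpin1 and Slc38a2 were, with Pck1, among the 8 genes with the largest rise in mean CPM among called genes whose genotypes did not overlap. Igfbp1, an insulin-repressed secreted binding protein of insulin-like growth factors, was at 15.3, 4.91, 7.56, 43.8 and 24.2 CPM in Cebpa fl/fl mice. It was at 196, 88.2, 207, 241 and 269.7 CPM in CebpaΔHep mice, 10.5-fold higher (log2 fold change 3.39 ± 0.48, adjusted p = 4.88e-04). Tat, tyrosine aminotransferase, rose 2.87-fold from 851 ± 314 to 2440.2 ± 328 CPM (SD, n = 5 each; edgeR adjusted p = 3.20e-04). Lpin1, a phosphatidate phosphatase and coactivator, rose 4.33-fold (43.9 to 244 CPM in Cebpa fl/fl and 464 to 886 CPM in CebpaΔHep mice). The amino acid carrier gene Slc38a2 rose 2.66-fold.

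In glucocorticoid metabolism, Hsd11b1 was among the largest falls in mean CPM. Hsd11b1, which regenerates active glucocorticoid inside the hepatocyte, was at 329, 359.8, 309, 334 and 341 CPM in Cebpa fl/fl mice and at 67.3, 71.8, 38.9, 42.6 and 48.6 CPM in CebpaΔHep mice. It fell 6.202-fold (log2 fold change -2.63 ± 0.16, adjusted p = 8.19e-07). Serpina6, the plasma glucocorticoid carrier, fell as well (log2 fold change -0.91, adjusted p = 0.00515). The members of the steroid list that rose were Fkbp5, a chaperone partner of the receptor, at 2.67-fold, and Tsc22d3, which encodes GILZ, at 2.41-fold. Of its 17 genes, 2 were higher, 6 lower and 9 did not pass. The steroid-converting genes Hsd17b6 (log2 fold change -2.22) and Hsd17b10 (-0.84) were among those lower. Time of death, feeding state and plasma hormones were not given in the sources used here, and their part in these values was not tested.

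**Figure D4:**
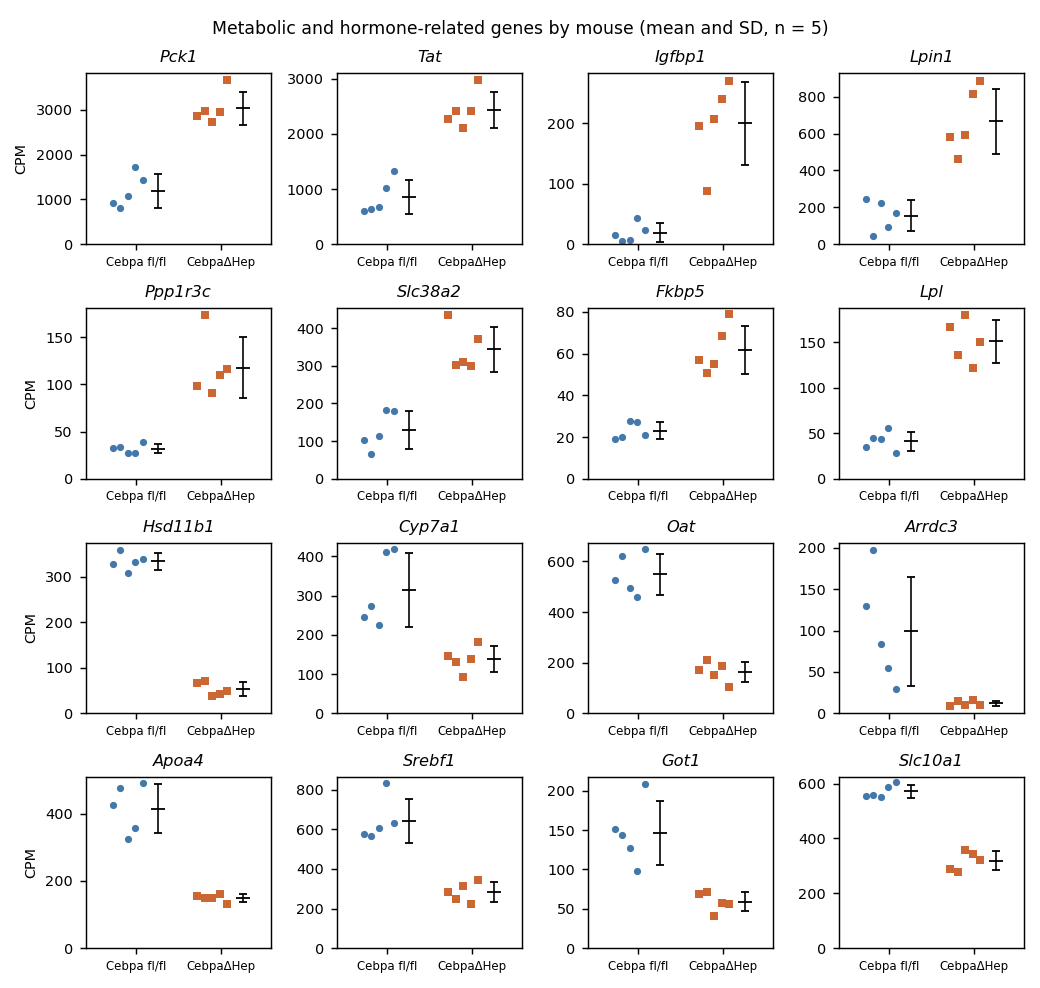
CPM of 16 metabolic and hormone-related genes in each mouse (blue circles Cebpa fl/fl, orange squares CebpaΔHep), with the mean and SD of 5 mice in black. Axes start at 0 and differ between genes, and the genotypes are separate in all 16, which the choice of most of these genes required, from Pck1 and Tat higher in CebpaΔHep mice to Hsd11b1 and Slc10a1 lower.

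Genes of the circadian clock list also differed. Nr1d1, the REV-ERB alpha repressor, fell 2.55-fold (29.1 to 62.6 CPM in Cebpa fl/fl and 10.7 to 18.7 CPM in CebpaΔHep mice), and Dbp fell less (log2 fold change -0.96, adjusted p = 0.0119). In the clock list 6 of 20 genes were lower and 2 higher. Whether all mice were killed at one hour of the day was not given, and its part in these genes was not tested.

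Amino acid breakdown was lower in 12 of 44 genes and higher in 5. The histidine ammonia-lyase gene Hal was at 374, 369, 371, 362 and 379 CPM in Cebpa fl/fl mice. It was at 217, 197, 122, 167 and 153 CPM in CebpaΔHep mice, 2.17-fold lower (adjusted p = 1.03e-04). The tyrosine pathway split at its first step, with Tat higher while Hpd (log2 fold change -0.67) and Hgd (-0.57), the next enzymes in the chain, were lower. In the urea cycle, 7 of 9 genes did not pass, Cps1 among them (3692 and 3333 CPM). In methionine metabolism Pemt, which methylates phosphatidylethanolamine, and Cbs, which makes cystathionine, fell 1.85-fold and 1.94-fold, while Mat2a, the extrahepatic type of methionine adenosyltransferase, rose 1.92-fold and Mthfd2, a mitochondrial folate enzyme of growing cells, rose 4.98-fold.

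Lipid genes gave no single direction. Srebf1, the lipogenic transcription factor SREBP1, was at 576, 565, 605, 834 and 632 CPM in Cebpa fl/fl mice and at 282, 249.8, 315, 223 and 345 CPM in CebpaΔHep mice, 2.27-fold lower (adjusted p = 1.06e-04). Of the 21 lipogenesis genes 5 were higher and 5 lower. The fatty acid synthase gene Fasn overlapped widely, at 228 to 827 and 190.4 to 649 CPM (adjusted p = 0.399), and Scd1 did not pass either (adjusted p = 0.442). The desaturase gene Fads2 rose 1.92-fold, and the citrate carrier gene Slc13a5 rose 8.75-fold from a low control level (0.630 to 1.69 CPM). Fatty acid oxidation and ketogenesis had 32 of 36 genes that did not pass, and Cpt1a, its entry enzyme, had 523 and 547 CPM on average.

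Lpl, lipoprotein lipase, which adult hepatocytes express little, was at 34.9, 44.8, 43.6, 55.4 and 28.3 CPM in Cebpa fl/fl and 167, 136, 180.3, 121 and 151 CPM in CebpaΔHep mice. It rose 3.65-fold (adjusted p = 1.34e-05). Angptl4, which encodes a secreted inhibitor of the lipase, rose 2.18-fold. Apoa4, an apolipoprotein of intestine and of fatty mouse liver, was at 428, 478, 326, 357 and 492 CPM in Cebpa fl/fl mice. It fell 2.795-fold to 130.3 to 161 CPM (adjusted p = 6.01e-06). Apob did not pass (6552 and 7482 CPM). In the apolipoprotein list 3 of 23 were higher and 6 lower.

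The cholesterol synthesis list had a median of 0.31, and none of the 8 genes that rose reached 2-fold. Msmo1, a C-4 sterol demethylase, rose (log2 fold change 0.62, adjusted p = 0.0137). Insig2, which retains the SREBP complex in the endoplasmic reticulum, fell 1.52-fold.

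Drug-handling families changed member by member. Of 55 cytochrome P450 genes, 6 were higher and 11 lower. Beside Cyp2a4, the genes Cyp3a25 (log2 fold change -0.96) and Cyp2c68 (-1.07) were lower, while Cyp2d12 (3.11) and the retinoic acid hydroxylase Cyp26b1 (2.80) were higher. Conjugating enzymes had 10 higher and 9 lower of 50. Gstm3 rose 3.77-fold (23.97 to 37.99 CPM in Cebpa fl/fl and 74.2 to 187 CPM in CebpaΔHep mice), and Gsta2 rose too (log2 fold change 1.97). Mgst1 fell 1.88-fold, Gstt3 fell (log2 fold change -2.67) and Sult1d1 fell (-1.58). The antioxidant regulator gene Nfe2l2 was itself lower (log2 fold change -0.61, adjusted p = 0.00127). These are families of similar sequence, and values of single members carry the uncertainty of read assignment.

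Major urinary proteins, pheromone carriers that male mouse liver makes in very large amounts, had 1 of 19 genes higher and 6 lower, with a median of -0.86. Mup3 was at 11274, 10079, 8403, 11891 and 10111 CPM in Cebpa fl/fl mice. In CebpaΔHep mice it was at 4465, 3629, 1899, 1663 and 1533 CPM, 3.92-fold lower (adjusted p = 4.18e-04), and CebpaΔHep mice 2 and 3 were the 2 highest of their group. Mup20, the male pheromone darcin, was at 14099, 9819, 10604, 18626 and 12871 CPM in Cebpa fl/fl and at 28837, 26014, 26574, 25499 and 30296 CPM in CebpaΔHep mice, 2.08-fold higher (adjusted p = 5.79e-04). In the joint fit over 30 livers Mup20 no longer passed (adjusted p = 0.0948). Mup7 had 6703 and 455 CPM on average and missed the threshold (adjusted p = 0.0544). As members of a family of similar sequence, single genes here also carry the uncertainty of read assignment.

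Secreted proteins and plasma carriers were lower in 8 of 35 genes and higher in 1. Those lower included the thyroxine carrier gene Serpina7 (log2 fold change -1.75) and the insulin-sensitising serpin gene Serpina12 (-1.63). Complement and coagulation had 7 higher and 3 lower of 55, with complement factor C2 among the higher ones (log2 fold change 0.79, adjusted p = 6.80e-04). Acute phase genes had 26 of 30 genes that did not pass, while the interleukin-6 receptor gene Il6ra rose (log2 fold change 0.92 ± 0.18, adjusted p = 0.00458).

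Hepatokines and growth factor genes were higher in 9 and lower in 5 of 34. Inhbe, the liver-enriched activin subunit, fell 2.32-fold (42.04 to 59.3 CPM in Cebpa fl/fl and 15.8 to 25.8 CPM in CebpaΔHep mice). The intestine-type trefoil peptide gene Tff3 was at 8.72, 6.42, 3.48, 17.8 and 6.77 CPM in Cebpa fl/fl mice and at 108, 93.9, 73.1, 59.95 and 47.1 CPM in CebpaΔHep mice, 8.89-fold higher (adjusted p = 7.23e-05). H19, an imprinted fetal noncoding RNA, rose 7.73-fold and the imprinted adaptor gene Grb10 3.104-fold. With Rian, these were the 4 of 10 tested oncofetal and imprinted genes that passed, all higher, out of 26 listed. Rian, almost absent from the Cebpa fl/fl mice, met the count filter only through the CebpaΔHep mice. For such a gene a rise was the only direction the test could show, so the shared direction is not a separate result. Meg3, the neighbour of Rian, was under the count filter and was not tested.

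Among liver transcription factors, Cebpb stood at 16.4, 12.3, 22.1, 24.3 and 18.5 CPM in Cebpa fl/fl and at 44.4, 43.3, 34.6, 35.03 and 45.4 CPM in CebpaΔHep mice, 2.16-fold higher (adjusted p = 3.94e-04). Of the other family members, Cebpg rose 1.85-fold (adjusted p = 3.05e-05) and Cebpd did not pass (adjusted p = 0.200). The estrogen receptor gene Esr1 rose 3.55-fold (8.46 to 11.9 CPM in Cebpa fl/fl and 18.9 to 61.5 CPM in CebpaΔHep mice). Prox1 (log2 fold change -1.003) and Gata4 (-0.86) fell, and Hnf4a did not pass (adjusted p = 0.238). In all 6 of 50 were higher and 10 lower.

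Of 41 listed cell cycle genes, 26 had enough counts to be tested and 23 of these did not pass. The DNA topoisomerase gene Top2a rose 3.42-fold, with overlap (0.398 to 1.14 CPM in Cebpa fl/fl and 0.859 to 3.75 CPM in CebpaΔHep mice). E2f2 fell (log2 fold change -1.59). Cdk6 was lower by -0.42 and only just passed (edgeR adjusted p = 0.0480), with overlapping genotypes. It no longer passed in 7 of the fits with 1 mouse left out. The cyclin-dependent kinase inhibitor gene Cdkn1a, which encodes p21, was at 1.26, 1.01, 1.59, 1.27 and 0.968 CPM in Cebpa fl/fl and 3.22, 13.9, 5.34, 11.4 and 7.07 CPM in CebpaΔHep mice. It rose 6.61-fold (adjusted p = 5.55e-04). Gadd45a, another p53 target, fell 6.88-fold.

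Heat shock genes, a group described here after their values were seen, came next. Hspa1b, a stress-inducible chaperone, was at 3.79, 5.16, 3.68, 7.41 and 7.02 CPM in Cebpa fl/fl mice and at 17.4, 33.8, 90.3, 28.4 and 80.5 CPM in CebpaΔHep mice, 9.23-fold higher (adjusted p = 4.18e-04). Its near-identical copy Hspa1a shares reads with it. The cochaperone genes Hsph1, Dnajb1 and Bag3 rose 2.68-fold, 2.400-fold and 2.01-fold, and the constitutive chaperones Hspa8 and Hsp90aa1 1.54-fold and 1.85-fold. Of 61 tested protein-coding genes whose symbol begins with Hsp or Dnaj, 11 were higher and 0 lower by edgeR's test, with a median log2 fold change of 0.13. Tissue handling and body temperature were not given, and their part was not tested.

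Kupffer cell markers were higher in 3 of 10 genes, Cd163, Folr2 and C1qa, with summed levels of 192 to 266 CPM in Cebpa fl/fl and 225 to 345 CPM in CebpaΔHep livers. None of 10 neutrophil markers had enough counts to be tested, and Ly6g was at 0 in all 10 livers. The summed level of these markers was 0.605 to 1.89 CPM in Cebpa fl/fl and 1.94 to 3.18 CPM in CebpaΔHep livers. These sums rest on few reads and single members went in both directions, so no difference is read from them. Endothelial markers had no gene that passed by edgeR's test of 10, and stellate cell markers had 1 of 10 (Rgs5). The chemokine gene Ccl9 rose 2.52-fold (27.8 to 36.9 CPM in Cebpa fl/fl and 70.5 to 116 CPM in CebpaΔHep mice). Interferon-stimulated genes were higher in 5 and lower in 1 of 32, with Zbp1, a nucleic acid sensor, 2.51-fold and Ifi27 2.17-fold higher. The list's median of 0.54 dropped to 0.12 when CebpaΔHep mouse 5 was left out, and this mouse had the highest Ifi27 level. Ly6e, a membrane protein gene inducible by interferon, rose 2.19-fold. The erythroid heme enzyme gene Alas2 fell 2.21-fold (142 to 162 CPM in Cebpa fl/fl and 62.1 to 77.3 CPM in CebpaΔHep mice), while the globin genes did not pass, and summed erythroid markers were 355 to 1027 CPM and 223 to 626 CPM. The part of blood and immune cell content in these values was not tested.

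The difference between the genotypes at 2 weeks was then set against the same difference in the inducible experiments. These differ in cre driver, time of deletion, diet length and tamoxifen at once, which cannot be told apart, and each has its own controls. In a joint fit of the 30 livers, the genotype effect at 2 weeks differed from that in HFCFD8W+T10D in 1457 of 12964 genes (11.2%) and from that in HFCFD12W+T10W in 3985 (30.7%). Of the 187 genes called higher at 2 weeks, 75 differed from HFCFD8W+T10D and 95 from HFCFD12W+T10W, and of the 153 called lower, 67 and 73 did. The effect was smaller in the other experiment for 73 of the 75 and 78 of the 95, and for 60 of the 67 and 63 of the 73. The genes were chosen for their size at 2 weeks, which bears on these counts.

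In the joint fit, the log2 fold change of Igfbp1 was 3.38 at 2 weeks, -0.16 in HFCFD8W+T10D and 0.43 in HFCFD12W+T10W (adjusted p of the difference 0.00471 and 0.00621). Lpin1 was 2.12, -0.76 and -0.92, and Tat was 1.52, -0.51 and -0.97. Pck1 was 1.35, 0.19 and -0.59, with adjusted p of the difference 0.0353 and 2.14e-04. Slc38a2 was 1.41, -0.45 and -0.50. For these 5, both differences between experiments passed, and none was higher in an inducible experiment at an adjusted p under 0.05. Tat was lower in HFCFD12W+T10W by edgeR's test in the joint fit (adjusted p = 0.0139). Of the other 3 of the 8 genes with the largest rise in CPM, Ly6e was 1.13, 1.73 and 1.33, higher in all 3 experiments, and its differences did not pass (adjusted p 0.0813 and 0.526). Spp1 was 3.60, 2.58 and 4.12, with adjusted p of the difference 0.0435 and 0.232, and Mup20 is given with the other major urinary protein gene below.

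On the lower side, Sulf2 fell more at 2 weeks (-4.04) than in HFCFD8W+T10D (-0.74) or HFCFD12W+T10W (-0.92; adjusted p of the difference 8.65e-07 and 8.37e-07). Apoa4 was -1.48 at 2 weeks against 0.21 and 0.45, and Cyp2a4 was -6.97 against -2.48 and -1.80. Mup3 was the reverse case, at -1.97 against -7.19 and -6.46 (adjusted p 2.47e-05 and 4.03e-05). Mup20 was 1.05 at 2 weeks against -1.33 and -0.99 (adjusted p of the difference 0.00860 and 0.00944). For Hsd11b1 (-2.63, -2.07 and -2.40) and Oat (-1.74, -1.27 and -1.31) the differences did not pass. Cebpa itself was lower by more at 2 weeks (-5.23) than in HFCFD8W+T10D (-3.06) or HFCFD12W+T10W (-2.43; adjusted p of the difference 9.31e-07 and 2.73e-08). These are folds in whole liver over each experiment's own controls. The parts of deletion in hepatocytes, of control level and of other cells in them were not tested.

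**Figure D5:**
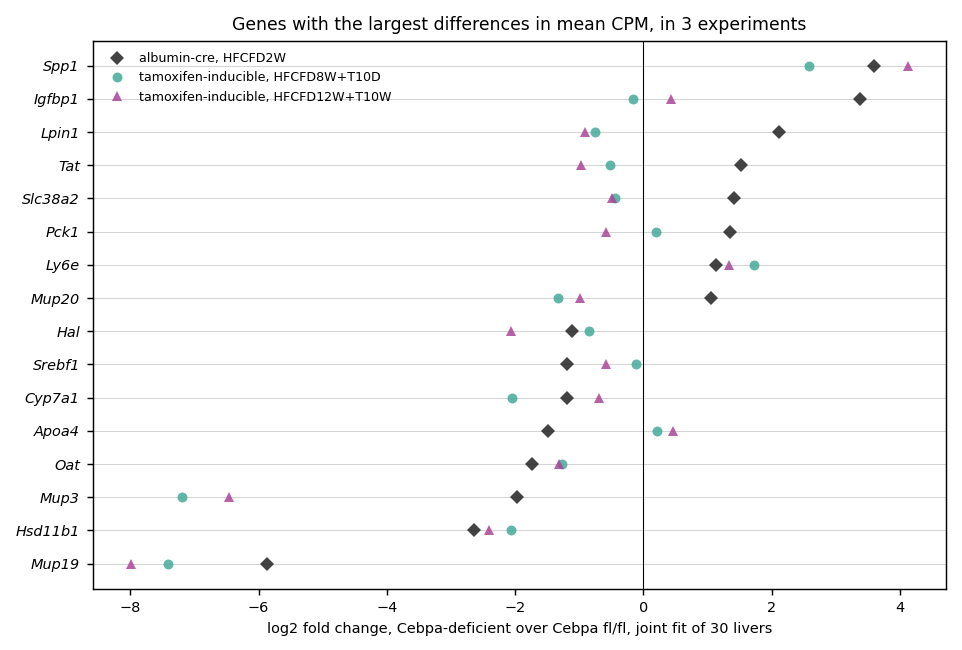
Log2 fold change of Cebpa-deficient over Cebpa fl/fl livers (horizontal axis) in the joint fit of 30 livers, for the 16 genes with the largest differences in mean CPM at 2 weeks, with black diamonds for albumin-cre at 2 weeks, green circles for HFCFD8W+T10D and purple triangles for HFCFD12W+T10W. Igfbp1, Lpin1, Tat, Slc38a2 and Pck1 lie right of 1 at 2 weeks and left of 0.5 in both inducible experiments, while Hsd11b1 and Oat lie close together in all 3.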

How the data were processed

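PolyA RNA of 30 mouse livers was sequenced from strand-specific libraries. The authors deposited expected counts per gene and TPM from RSEM for each library, and a table of TMM-normalized signal values over filtered genes. The submitters' processing notes name Trimmomatic 0.36, STAR 2.5.1, Picard 1.84, RSEM 1.2.22 and DESeq2 with build mm10. Identifiers matched GENCODE M21 for 55450 genes. RSEM divides reads of near-identical genes between copies.

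Expected counts were rounded to whole numbers. The 5 Cebpa fl/fl and 5 CebpaΔHep livers of the 2-week experiment were compared with edgeR 4.0.16 in R 4.3.3 (filterByExpr, TMM scaling, quasi-likelihood test, Benjamini-Hochberg adjustment over 11068 genes). A called gene had an adjusted p under 0.05 and differed at least 2-fold. A joint fit of the 30 livers tested differences between experiments. The test was checked on simulated data. Each mouse was a separate sample, and with 5 mice a group their number limits the precision.

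Genes were named by rule: the 12 called genes with the largest fold in each direction with a mean of at least 1 CPM in the higher group and no overlap, the 8 with the largest difference in mean CPM in each direction, up to 4 per list over 46 gene lists by adjusted p, and 13 lists of 10 cell type markers. The members and lists were chosen with earlier results of these data known. Another 30 genes were added after their values were seen, namely Hspa1b, Hspa1a, Hsph1, Dnajb1, Hspa8, Hsp90aa1, Bag3, G6pc, Fasn, Glul, Cpt1a, Cyp8b1, Cyp2a5, Nr1h4, Abcg5, Abcb1b, Abcc4, Tbx3, Gys2, Scd1, Apob, Mup7, Serpina7, Serpina12, Prox1, Gata4, Hnf4a, Cyp2c68, Gsta2 and Cebpd. A gene with at most 3 counts in every library of one genotype was given a bound on its fold. Alternatives were no filter, the genes of the filtered table, upper quartile scaling, DESeq2 1.42.0, robust dispersion, limma 3.58.1 on the deposited signal values, the joint fit, a replicate block, each mouse left out, and other thresholds. Promoter windows were from RefSeq. A deposited RPKM table was not used, and some genes that the rule selects are not reported here.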

Additional observations from a re-analysis of the deposited data

Results flagged for a closer look

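A single mouse stood far from the other 4 of its genotype in 25 of 420 groups of 5, 210 genes in both genotypes, by the gap to the nearest mouse over the range of the group (limit 0.71). For normally distributed values, chance alone puts about 1 in 20 groups past this limit. That rate does not apply to sets of mostly 0 or single reads, such as Myo15b, Gipc2, Gm10132 and Gm10095 in Cebpa fl/fl mice. The highest Cebpa fl/fl mouse stood apart for Myo15b at 0.126 CPM in mouse 1 (others 0), Lrtm2 at 0.756 CPM in mouse 2 (others 0.0995 to 0.126), Gm10132 at 0.695 CPM in mouse 4 (others 0) and Gm10095 at 1.27 CPM in mouse 4 (others 0). In the same group, so did Sdr16c5 at 1.39 CPM in mouse 4 (others 0 to 0.299), Srebf1 at 834 CPM in mouse 4 (others 565 to 632), Ddit4 at 15.2 CPM in mouse 5 (others 3.78 to 6.72) and Ppp1r3g at 3.13 CPM in mouse 4 (others 0.252 to 0.726). The mouse was also highest and apart for Hspa1a at 2.54 CPM in mouse 5 (others 0.0995 to 0.463) and Serpina12 at 153 CPM in mouse 4 (others 75.9 to 94.1). The lowest Cebpa fl/fl mouse stood apart for Gipc2 at 0 CPM in mouse 5 (others 0.0995 to 0.126), Tiam2 at 5.31 CPM in mouse 1 (others 6.67 to 7.14), Ces1g at 313 CPM in mouse 4 (others 368 to 382) and Angptl4 at 40.3 CPM in mouse 2 (others 73.5 to 83.2). It did so as well for Hsd17b6 at 105 CPM in mouse 5 (others 175 to 186). Among CebpaΔHep livers, the highest mouse stood apart for Rian at 7.54 CPM in mouse 3 (others 4.66 to 5.43), Pck1 at 3673 CPM in mouse 6 (others 2729.8 to 2962), Insig2 at 49.6 CPM in mouse 3 (others 34.1 to 36.5) and Bhlhe41 at 2.01 CPM in mouse 2 (others 0.477 to 0.798). The same held for Vcam1 at 23.2 CPM in mouse 5 (others 13.1 to 15.5), Ifi27 at 312 CPM in mouse 5 (others 144 to 171), Pigr at 1941 CPM in mouse 6 (others 1650.2 to 1725) and Abcb1b at 6.301 CPM in mouse 3 (others 2.96 to 3.72). A further set was Scd1 at 29942 CPM in mouse 5 (others 8871 to 14107). The lowest CebpaΔHep mouse stood apart for Ces2a at 134 CPM in mouse 3 (others 175 to 189.7).

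The genotype effect at 2 weeks differed from that in an inducible experiment, by the test of the difference in the joint fit of edgeR, for the genes below. Values are differences between log2 fold changes, 2 weeks minus the other experiment, with the adjusted p. Cre driver, diet length and tamoxifen differed at once and cannot be told apart. Rian differed by 3.12 from HFCFD8W+T10D and by 3.36 from HFCFD12W+T10W (adjusted p = 0.0467 and 0.00647). Fam107a differed by 6.67 from HFCFD8W+T10D and by 6.43 from HFCFD12W+T10W (adjusted p = 7.41e-04 and 3.49e-04). Gm32468 differed by 3.85 from HFCFD8W+T10D and by 4.68 from HFCFD12W+T10W (adjusted p = 0.00326 and 1.32e-04). Mup20 differed by 2.39 from HFCFD8W+T10D and by 2.04 from HFCFD12W+T10W (adjusted p = 0.00860 and 0.00944). Pck1 differed by 1.15 from HFCFD8W+T10D and by 1.94 from HFCFD12W+T10W (adjusted p = 0.0353 and 2.14e-04). Tat differed by 2.03 from HFCFD8W+T10D and by 2.48 from HFCFD12W+T10W (adjusted p = 0.00411 and 2.08e-04). Lpin1 differed by 2.87 from HFCFD8W+T10D and by 3.03 from HFCFD12W+T10W (adjusted p = 0.00418 and 8.74e-04). Slc38a2 differed by 1.86 from HFCFD8W+T10D and by 1.90 from HFCFD12W+T10W (adjusted p = 0.00141 and 3.15e-04). Igfbp1 differed by 3.54 from HFCFD8W+T10D and by 2.95 from HFCFD12W+T10W (adjusted p = 0.00471 and 0.00621). Mup3 differed by 5.22 from HFCFD8W+T10D and by 4.49 from HFCFD12W+T10W (adjusted p = 2.47e-05 and 4.03e-05). Cebpa differed by -2.17 from HFCFD8W+T10D and by -2.80 from HFCFD12W+T10W (adjusted p = 9.31e-07 and 2.73e-08). Cyp2a4 differed by -4.49 from HFCFD8W+T10D and by -5.17 from HFCFD12W+T10W (adjusted p = 0.00142 and 9.51e-05). Cldn14 differed by -2.68 from HFCFD8W+T10D and by -3.81 from HFCFD12W+T10W (adjusted p = 0.0107 and 1.03e-04). Sulf2 differed by -3.30 from HFCFD8W+T10D and by -3.12 from HFCFD12W+T10W (adjusted p = 8.65e-07 and 8.37e-07). Gm4956 differed by -3.62 from HFCFD8W+T10D and by -5.02 from HFCFD12W+T10W (adjusted p = 2.94e-05 and 8.37e-07). Prlr differed by -2.93 from HFCFD8W+T10D and by -1.38 from HFCFD12W+T10W (adjusted p = 8.65e-07 and 0.00203). Arrdc3 differed by -1.85 from HFCFD8W+T10D and by -2.70 from HFCFD12W+T10W (adjusted p = 0.0155 and 2.38e-04). Apoa4 differed by -1.69 from HFCFD8W+T10D and by -1.94 from HFCFD12W+T10W (adjusted p = 1.94e-04 and 1.21e-05). Against HFCFD8W+T10D alone, the difference was Spp1 1.02 (adjusted p = 0.0435) and Srebf1 -1.06 (adjusted p = 0.0383). Against HFCFD12W+T10W alone, it was Myo15b 3.82 (adjusted p = 0.00508), Gm10132 4.18 (adjusted p = 0.0477), Gm10095 4.49 (adjusted p = 0.0117), Erbb4 -2.90 (adjusted p = 2.43e-04) and Hal 0.94 (adjusted p = 0.0439).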

How the results depend on the processing

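The counts of called genes, 187 higher and 153 lower, stayed within 1.5 times under every alternative but the fold minimum: without it, 952 were higher and 895 lower. Leaving out 1 mouse gave 174 to 207 higher and 138 to 175 lower. The counts of genes whose effect differed from the inducible experiments, 1457 and 3985, became 594 and 2362 at an adjusted p under 0.01, and ranged from 1133 to 1443 and from 3605 to 3991 with 1 mouse left out. Mice 2 and 3 of CebpaΔHep were left out together as an alternative chosen after seeing the data. Whether the replicate numbers 2 to 5, present in both genotypes, mark pairs of mice was not given, and the mice were not treated as pairs. The correlations of the deviations of equally numbered mice were -0.34, -0.16, -0.12 and 0.04. Such correlations cannot settle the question, because littermates need not resemble each other in these values. With the replicate block, 146 genes were higher and 123 lower, and of 210 named genes 46 no longer passed and 1 newly passed. In this fit Cebpa fl/fl mouse 1 and CebpaΔHep mouse 6 had no partner and added nothing to the genotype difference. The parts of pairing and of fewer mice in these counts were not tested. Among those no longer passing under the block were Gm10095, Serpina7, Serpina12 and Hspa8. Glul, not different with all mice (log2 fold change -0.07), was 0.026 under the block. Of the 210, 21 no longer passed in the joint fit, Mup20 and Insig2 among them, 7 with robust dispersion, 4 on the filtered genes, 3 without a filter, 3 by limma, 1 by upper quartile and 0 by DESeq2; the cause was not tested. No gene that passed changed sign in these fits. Of 2100 values with 1 mouse left out, 76 no longer passed. Cyp2a5, not different at 0.17, ranged from -0.12 to 0.43 with 1 mouse left out.

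Genes under 1 CPM rest on few counts, and their folds depend on 1 or 2 reads in the other genotype.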

Other observations

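Further gene lists held smaller sets of differences. Retinoid genes were higher in 4 and lower in 3 of 19, and Bco1, which cleaves carotenoids, rose 2.15-fold. In the growth hormone list, with 3 of 28 higher and 6 lower, the feedback inhibitor gene Socs2 rose 3.41-fold. Smpdl3b, a membrane phosphodiesterase of sphingolipid handling, rose 9.53-fold (0.347 to 1.01 and 5.63 to 10.1 CPM). Sphingolipid genes as a list split into 4 higher and 5 lower of 24. Solute carriers split almost evenly as well, 27 higher and 26 lower of 208, with Slc35f2 rising 5.43-fold and the amino acid carrier gene Slc43a1 falling 3.64-fold.

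Immediate early genes were higher in 5 and lower in 1 of 18, and Jun, a subunit of AP-1, rose 3.27-fold (3.68 to 6.42 and 11.7 to 25.1 CPM). In the list of Hippo pathway genes 5 of 18 were lower, 1 was higher and 12 did not pass, with a median log2 fold change of 0.080. Wwtr1, which encodes the pathway's coactivator TAZ, was 1.59-fold lower. Ccn1, which was lower, belongs to both of these lists. In the stress response list Ddit4, an inhibitor of mTORC1, rose 2.88-fold while the pseudokinase gene Trib3 fell 2.395-fold. The flagellin receptor gene Tlr5 fell 2.72-fold (9.84 to 15.5 and 3.08 to 6.04 CPM). Iron genes had 5 of 22 lower and 0 higher by edgeR's test, where ceruloplasmin (Cp) fell by a log2 fold change of -0.39 ± 0.076. In oxidative phosphorylation 36 of 40 genes did not pass.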
